A study of Mus musculus with 24 samples.

Results

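The 10 genes described here make up the core of cytosolic nucleic acid sensing. They were listed by symbol, with earlier results of these data known. They are Mb21d1 (cGAS), Tmem173 (STING), Aim2, Mavs, Irf3, Trex1, Samhd1, Rnaseh2a, Rnaseh2b and Rnaseh2c, and all 10 were found under these symbols among the 20636 genes of the TPM tables. RNA was measured in microglia, macrophages that reside in the brain; the donors were homozygous knockout (HOM), heterozygous knockout (HET) and wild-type (WT) mice for 3110043O21Rik, the mouse counterpart of C9orf72. All mice were labelled C57BL/6J and were 3 or 17 months old, with 4 animals in each of the 6 groups and 24 libraries in all. Cells were collected with magnetic CD11b beads after the meninges and myelin had been taken away. CD11b is carried by other myeloid cells too, and the labels do not say how the knockout allele was made or whether it acts only in microglia.

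DNA in the cytosol is bound by cGAS, which makes the messenger cGAMP. STING in the endoplasmic reticulum binds cGAMP, moves to the Golgi and recruits the kinase TBK1, which phosphorylates the transcription factor IRF3 and so turns on type I interferon genes. STING is then degraded in lysosomes, and loss of C9orf72 in mouse myeloid cells is known for slower STING breakdown and stronger interferon signalling, a step that acts on the protein. MAVS on mitochondria feeds RNA signals into the same kinase and IRF3, and AIM2 binds DNA to form an inflammasome. Trex1, Samhd1 and the 3 RNase H2 subunits remove DNA, nucleotides or RNA-DNA hybrids that would otherwise set off the sensors, and their loss in people causes Aicardi-Goutieres syndrome.

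The promoters of Irf3 and Mavs are shown because these genes had the lowest p-values of the 10 at 3 months, and that of Samhd1 because a single library stood apart in it at 17 months. Each runs from 250 bases before to 50 after the start in the RefSeq table of GRCm38.p6, 5′ to 3′ on the gene's strand. Capitals mark CG pairs in Irf3 (chr7:44997398-44997697, plus strand) and Mavs (chr2:131233813-131234112, plus strand). In Samhd1 (chr2:157135047-157135346, minus strand) they mark a match to the pattern TTCNNNGAA.
Irf3: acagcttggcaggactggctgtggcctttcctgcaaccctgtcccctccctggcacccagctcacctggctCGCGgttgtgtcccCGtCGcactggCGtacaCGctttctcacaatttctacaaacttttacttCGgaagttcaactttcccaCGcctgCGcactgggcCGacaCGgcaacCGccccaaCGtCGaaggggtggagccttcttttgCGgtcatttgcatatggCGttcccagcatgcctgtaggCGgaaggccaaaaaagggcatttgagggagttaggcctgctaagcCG
Mavs: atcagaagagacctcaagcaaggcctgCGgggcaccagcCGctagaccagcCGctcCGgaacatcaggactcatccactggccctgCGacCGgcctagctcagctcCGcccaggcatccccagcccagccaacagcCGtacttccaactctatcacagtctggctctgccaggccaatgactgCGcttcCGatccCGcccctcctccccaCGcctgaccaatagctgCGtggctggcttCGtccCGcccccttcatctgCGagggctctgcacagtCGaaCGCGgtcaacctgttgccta
Samhd1: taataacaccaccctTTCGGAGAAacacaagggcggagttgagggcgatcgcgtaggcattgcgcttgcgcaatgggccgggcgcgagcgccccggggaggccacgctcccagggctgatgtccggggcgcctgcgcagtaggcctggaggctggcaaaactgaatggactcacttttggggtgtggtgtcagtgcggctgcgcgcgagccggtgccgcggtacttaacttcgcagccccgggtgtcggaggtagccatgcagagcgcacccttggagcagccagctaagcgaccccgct

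Of the 10 genes, 8 were matched to a promoter that may be printed or searched here, and Tmem173 and Rnaseh2b were not used. The Irf3 promoter held 18 CG pairs, that of Mavs 19 and that of Samhd1 29, against a median of 7 over 32851 promoters. The 25th and 75th percentiles were 3 and 20, so Irf3 and Mavs lay within them. Aim2 and 1 of the 2 Trex1 promoters held the fewest of those searched, 5. The interferon-stimulated response element, searched on both strands as GAAA, any 2 bases and GAAA, was in 0 of the 8 genes' promoters, in 3.44% of all promoters and in 13 of 28 promoters of the interferon-stimulated list below. The interferon-gamma-activated site pattern TTCNNNGAA matched Samhd1, from base -235 before the start, and Rnaseh2a, and 8.3% of all promoters. GAGGAAGT, a PU.1 pattern, matched Aim2 and 1 of the 2 Trex1 promoters, and 3.2% of all promoters. CCGGAAG, an Ets pattern, matched Aim2 and 8.86%, and its match shared no base with the PU.1 match, although the patterns share letters. An NF-kB pattern, GGGA with any 4 bases and CC, matched Mb21d1 and 20.7%. The palindromic NRF1 pattern (0.971%) and the E-box pattern TCACGTGA (0.974%) matched none of the 8 genes. These matches describe letters in a 300-base window and say nothing of binding.

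Tmem173 was by far the most abundant of the 10 per length, and Mb21d1, whose protein makes the ligand of STING, was the least. Over the 12 animals at 3 months, Tmem173 averaged 398 ± 20.8 TPM (SD), above 98.6% of all genes listed. Aim2 followed at 87.8 ± 16.4 TPM, Trex1 at 82.7 ± 8.56, Samhd1 at 67.0 ± 5.12, Rnaseh2c at 65.4 ± 8.44, Irf3 at 60.6 ± 4.94 and Mavs at 48.3 ± 4.41. These levels overlapped between neighbours, and none of them came near Tmem173, whose lowest animal stood at 376 TPM. Rnaseh2a at 14.6 ± 0.922 TPM, Rnaseh2b at 13.3 ± 1.17 and Mb21d1 at 13.2 ± 1.798 formed a lower tier, below every animal of the other 7 genes.

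In the separate 17-month table the order kept the same ends. Tmem173 averaged 285 ± 45.7 TPM, Trex1 92.0 ± 14.1, Rnaseh2c 85.5 ± 12.8, Samhd1 58.6 ± 12.5, Aim2 57.8 ± 7.42, Irf3 51.8 ± 7.32 and Mavs 35.6 ± 5.15. Rnaseh2a at 14.6 ± 1.19, Rnaseh2b at 12.8 ± 1.83 and Mb21d1 at 10.6 ± 1.65 were again lowest. The tables of the ages were made separately, so levels stand side by side and were not tested between ages. In the RPKM tables Tmem173 was also highest at both ages, and Rnaseh2a, not Mb21d1, was lowest. The RNase H2 subunits are known to work as a 1:1:1 trimer, and their transcripts were unequal. Rnaseh2c stood at 3.42 to 5.81 times Rnaseh2a in TPM at 3 months and at 4.70 to 7.99 times at 17 months, while Rnaseh2b stood at 0.796 to 1.09 and 0.607 to 1.06 times.

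**Figure D1:**
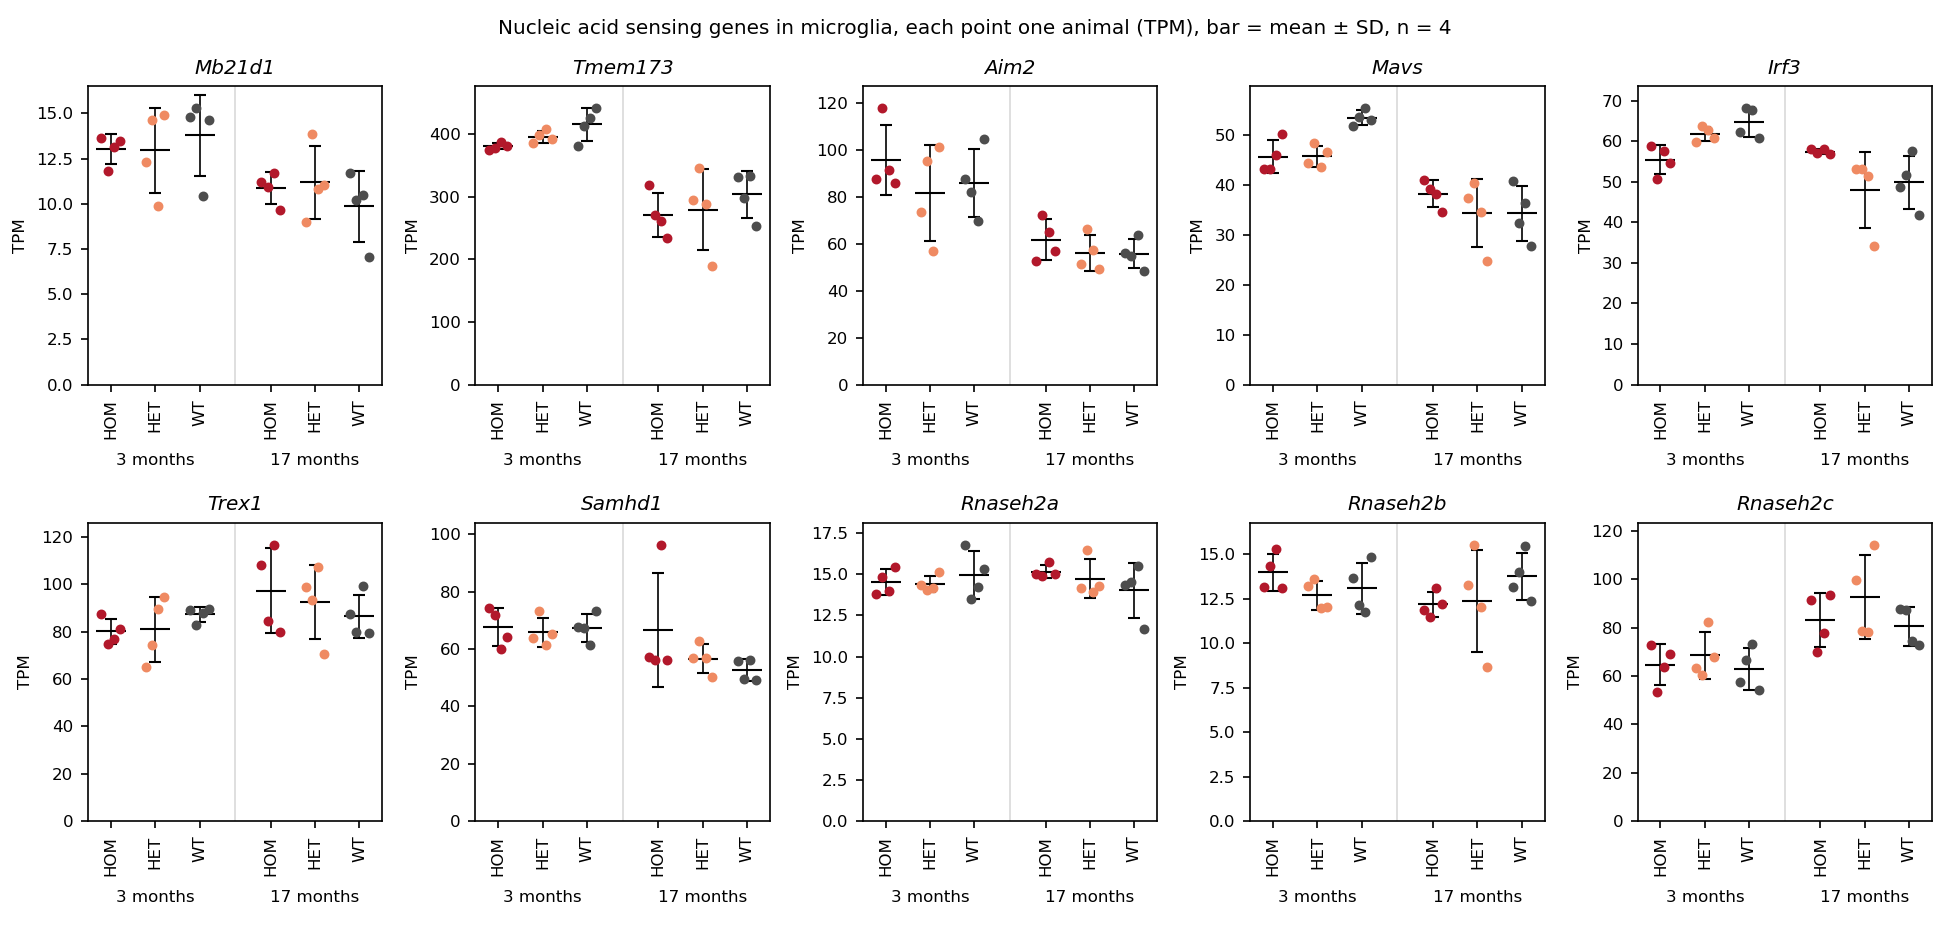
TPM of the 10 genes, each on its own axis from 0, by genotype (HOM, HET, WT) and age; points are animals, and bars are the mean ± SD of 4 animals. Mavs and Irf3 lie lower in HOM than in WT animals at 3 months with no overlap, 1 HOM animal is high in Samhd1 at 17 months (96.4 TPM), and most other groups overlap.

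The libraries held 21.8 to 33.8 M alignments at 3 months and 16.7 to 46.4 M at 17 months, and HOM libraries were the deepest at both ages. 3110043O21Rik averaged 0.139 TPM in HOM, 9.73 in HET and 22.8 in WT animals at 3 months, and 0.0360 TPM in HOM, 7.20 in HET and 14.9 in WT animals at 17 months. By Y-linked transcripts 2 HOM, 4 HET and 1 WT animals were male at 3 months, and 3 HOM, 0 HET and 1 WT animals at 17 months, so sex was not balanced. All 12 microglial markers were at 1 TPM or more in every library. Some 17-month libraries stood apart: HET-7796, whose listed TPM summed to 78.9% of the full TPM total and whose genes lay at a median log2 deviation of -0.25 from the 12-animal mean, and WT-7943 at -0.14. On the other side stood HET-7794, at a median log2 deviation of 0.14. HET-7796 was the lowest of 12 animals in 5 of the 10 genes and WT-7943 in 4, while HET-7794 was the highest in 4 and HOM-7899 in 3. The TPM sum of HOM-7893 was next lowest, at 80.4%.

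The first comparison asked how the homozygous knockout differed from wild type at 3 months. None of the 10 genes was called at an adjusted p under 0.05 in limma's moderated test, against 0.0604% of the 11587 genes tested. At an unadjusted p under 0.05 there were 3 of the 10, Mavs, Irf3 and Tmem173, against 19.7% of all genes, and all 3 were lower, against 17.1%. The median gene was itself lower in HOM animals, with a log2 change of -0.10, and the 10 genes had a median of -0.05. After centring the 10 genes had a median of 0.063, against 0.014 for all genes. The log2 change was above 0 for 4 of the 10, against 24.8% of all genes.

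Among the signalling proteins, Mavs, the mitochondrial adaptor for RNA sensors, had 43.3, 43.2, 46.0 and 50.1 TPM in HOM animals, against 51.8, 53.7, 55.4 and 53.0 TPM in WT animals. Every HOM animal lay below every WT animal, as for 15.1% of all genes. The log2 change was -0.23 (SE 0.0606, 95% interval -0.36 to -0.09, limma adjusted p = 0.111). Irf3, the transcription factor downstream of both STING and MAVS, had 58.8, 50.8, 57.6 and 54.6 TPM in HOM animals, against 62.2, 68.1, 67.6 and 60.7 TPM in WT animals. These groups did not overlap either, with a log2 change of -0.22 (SE 0.0608, limma adjusted p = 0.119). In RPKM the log2 changes were -0.16 for Mavs and -0.12 for Irf3 (limma adjusted p = 0.352 and 0.439). After centring each library on its median gene, which takes out the shift of all genes, Irf3 was at -0.11.

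Tmem173 had 376, 379, 387 and 382 TPM in HOM animals, against 381, 414, 426 and 442 TPM in WT animals. The HOM animals lay close together, and only the lowest WT animal fell within their range. The log2 change was -0.12 (SE 0.0494, limma adjusted p = 0.202), close to that of the median gene. Mb21d1 averaged 13.02 ± 0.814 TPM in HOM and 13.8 ± 2.26 TPM in WT animals (SD, n = 4 each). The DNA sensor Aim2 averaged 95.7 ± 14.9 TPM in HOM and 86.0 ± 14.4 TPM in WT animals, a log2 change of 0.16 with a 95% interval from -0.22 to 0.54.

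The nucleases and the dNTP hydrolase showed no call at this age. Trex1, the main cytosolic DNA exonuclease, averaged 80.0 ± 5.47 TPM in HOM and 87.2 ± 3.13 TPM in WT animals, and its groups overlapped (log2 change -0.12). Samhd1, which breaks down dNTPs, averaged 67.7 ± 6.65 TPM in HOM and 67.5 ± 4.82 TPM in WT animals. Of the RNase H2 subunits, the catalytic Rnaseh2a averaged 14.5 ± 0.762 TPM in HOM and 15.0 ± 1.44 TPM in WT animals. Rnaseh2b averaged 13.98 ± 1.06 TPM in HOM and 13.1 ± 1.44 TPM in WT animals (log2 change 0.09). Rnaseh2c, the small accessory subunit, averaged 64.8 ± 8.41 TPM in HOM and 62.9 ± 8.64 TPM in WT animals. The 95% intervals of Samhd1, Rnaseh2a and Rnaseh2b lay within -0.20 and 0.28 on the log2 scale.

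**Figure D2:**
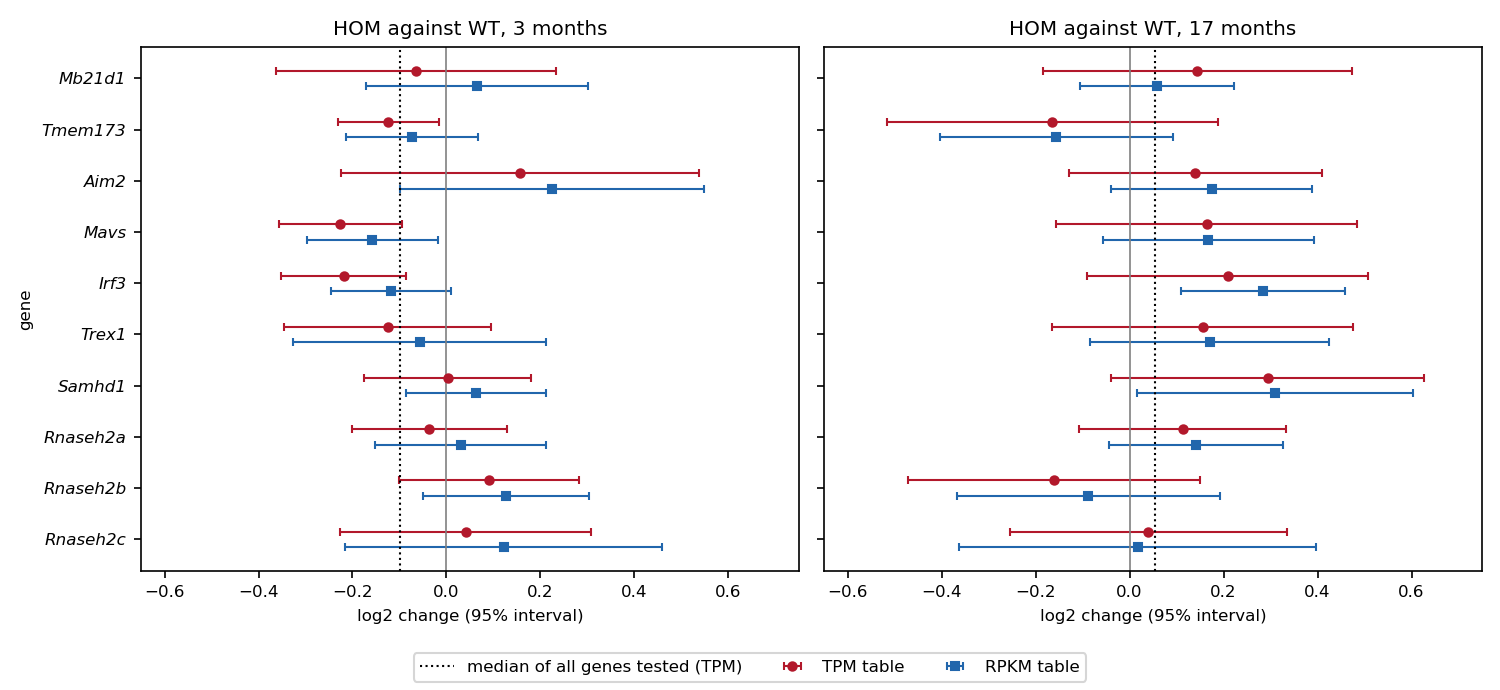
Log2 change of HOM against WT animals for each of the 10 genes at 3 months (left) and 17 months (right), in the TPM and RPKM tables, with 95% intervals; the dotted line is the median of all genes tested in TPM. At 3 months the intervals of Mavs, Irf3 and Tmem173 in TPM and of Mavs in RPKM lie below 0, and at 17 months those of Irf3 (0.11 to 0.46) and Samhd1 in RPKM lie above 0.

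In heterozygotes at 3 months none of the 10 was called, against 0.0432% of all genes for HET against WT and 0.0259% for HOM against HET. At an unadjusted p under 0.05 there was 1 of 10 in each, against 21.6% and 8.55%. For HET against WT it was Mavs, with 44.3, 48.4, 43.7 and 46.5 TPM in HET animals against 51.8, 53.7, 55.4 and 53.0 TPM in WT animals. The groups did not overlap, as for 9.99% of all genes, and the log2 change was -0.22 (SE 0.0606, limma adjusted p = 0.0827). Since Mavs had much the same level in HOM and HET animals, at 45.7 ± 3.27 and 45.7 ± 2.15 TPM, both mutant groups stood apart from the same 4 WT animals. For HOM against HET it was Irf3, where HOM animals (50.8 to 58.8 TPM) lay below HET animals (59.8 to 63.8 TPM), as for 2.85% of all genes, with a log2 change of -0.16 (limma adjusted p = 0.506). Aim2 averaged 95.7 ± 14.9 TPM in HOM and 81.8 ± 20.4 TPM in HET animals, with overlapping groups.

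At 17 months the same question had the same answer in TPM. None of the 10 was called for HOM against WT, against 0.712% of the 11792 genes tested (84 genes), and at an unadjusted p under 0.05 there was also none, against 18.6%. The log2 change was above 0 for 8 of the 10, against 60% of all genes, and the median was 0.14 against 0.05. Tmem173 and Rnaseh2b were the exceptions. The 84 genes called became 1 or 2 without any one of HOM-7893, HOM-7899, HOM-7901, WT-7782, WT-7783 or WT-7943, and 368 without HET-7796.

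Samhd1 had 57.4, 56.2, 96.4 and 56.2 TPM in HOM animals, against 55.7, 49.7, 56.1 and 49.3 TPM in WT animals. The lowest HOM animal lay just above the highest WT animal, as for 9.5% of all genes, and 1 HOM animal, HOM-7899, was far above the other 3. The log2 change was 0.29 (SE 0.154, limma adjusted p = 0.334), and without HOM-7899 it was 0.10 (adjusted p = 0.749). In that animal Irf7, an interferon-induced transcription factor, was at 118 TPM against 37.1 to 67.3 TPM in the other HOM animals. Ifitm3, which restricts viral entry, was at 931 TPM against 297 to 401 TPM. The summed level of 10 monocyte markers there was 1609 TPM, against 502 to 648 TPM in the other HOM animals and 227 to 378 TPM in WT animals. Markers of some other blood cells were also highest there among HOM animals. Neutrophil markers were not, at 3703 TPM against 2520 to 6254 TPM in the other HOM animals. Erythrocyte markers summed to 1923 TPM against 112 to 444 TPM in the other HOM animals, T and NK markers to 55.4 against 20.4 to 29.5 TPM, and B and plasma markers to 69.2 against 40.7 to 53.7 TPM. Not all interferon-induced genes were high in HOM-7899: Cxcl10, a chemokine, was at 28.03 TPM against 30.6 to 41.96 TPM, and Ifit2 at 1.83 against 2.66 to 3.09 TPM, the lowest of the HOM animals in both. The part of these cells in the Samhd1 value was not tested.

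Irf3 had 57.9, 57.1, 58.0 and 56.8 TPM in HOM animals, against 48.7, 51.7, 57.5 and 41.7 TPM in WT animals. The HOM animals were nearly equal, and 1 WT animal reached their level. This gave a log2 change of 0.21 (SE 0.138, limma adjusted p = 0.467). In the RPKM tables it was 0.28 (SE 0.0808, limma adjusted p = 0.0481), a call at a setting in which 8.34% of all genes were called. Mavs had 41.0, 39.1, 38.2 and 34.7 TPM in HOM animals, against 40.8, 32.3, 36.3 and 27.8 TPM in WT animals, overlapping (log2 change 0.16).

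Tmem173 had 319, 271, 261 and 235 TPM in HOM animals, against 332, 298, 333 and 254 TPM in WT animals. The groups overlapped, with a log2 change of -0.16 and a 95% interval from -0.52 to 0.19. Mb21d1 averaged 10.9 ± 0.866 TPM in HOM and 9.86 ± 1.96 TPM in WT animals, and Aim2 averaged 61.7 ± 8.72 TPM in HOM and 55.7 ± 6.21 TPM in WT animals. Trex1 averaged 97.2 ± 18.0 TPM in HOM and 86.4 ± 9.18 TPM in WT animals. Rnaseh2a averaged 15.2 ± 0.378 TPM in HOM and 14.01 ± 1.66 TPM in WT animals, and Rnaseh2b 12.2 ± 0.697 TPM in HOM and 13.8 ± 1.30 TPM in WT animals. Rnaseh2c averaged 83.2 ± 11.2 TPM in HOM and 80.6 ± 7.96 TPM in WT animals, and all of these groups overlapped.

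**Figure D3:**
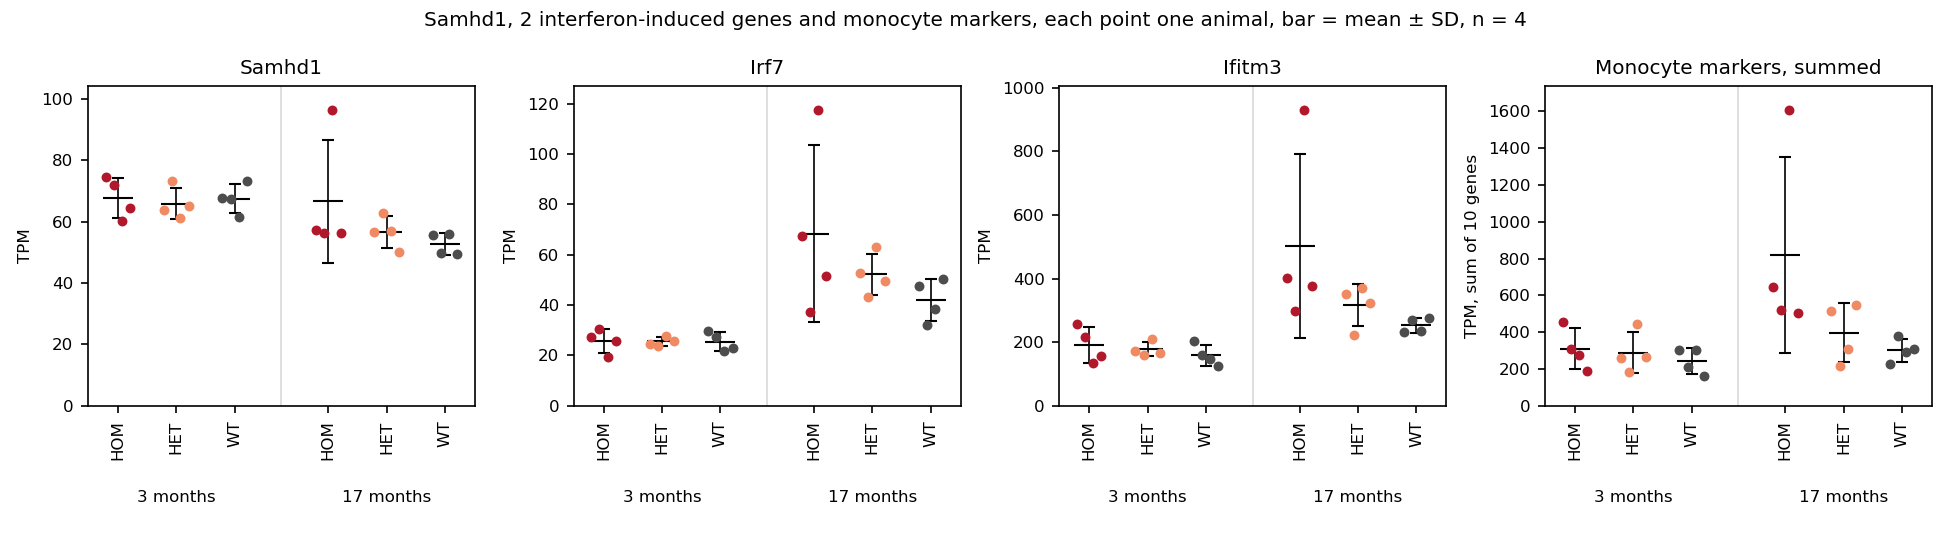
Samhd1, the interferon-induced genes Irf7 and Ifitm3 (TPM) and the summed TPM of 10 monocyte markers, by genotype and age; points are animals, bars the mean ± SD of 4. One HOM animal at 17 months is highest in all 4 panels, at 96.4, 118, 931 and 1609 TPM.

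For HET against WT at 17 months, none of the 10 was called (0.237% of all genes) and none passed an unadjusted p of 0.05 (9.24%). Tmem173 had 295, 346, 288 and 190 TPM in HET animals, against 332, 298, 333 and 254 TPM in WT animals, and the log2 change of -0.14 turned to 0.03 without HET-7796. For HOM against HET none of the 10 was called either (1.86% of all genes), nor at an unadjusted p of 0.05 (13%). Irf3 was 57.9, 57.1, 58.0 and 56.8 TPM in HOM animals, against 53.1, 53.2, 51.5 and 34.1 TPM in HET animals. These groups did not overlap, as for 6.68% of all genes, and the low value was that of HET-7796. Between HOM and HET animals the log2 change was 0.28 (SE 0.138, limma adjusted p = 0.426), and 0.12 without that animal. In RPKM the HOM (34.1 to 38.7) and HET (29.2 to 34.4) animals overlapped.

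The mean of the HOM against WT changes over both ages used all 24 libraries. None of the 10 was called (0.175% of 11436 genes), and none passed an unadjusted p of 0.05 (12%). Tmem173 had the lowest value, with a mean log2 change of -0.14 (95% interval -0.33 to 0.04). Samhd1 and Aim2 had the highest, both 0.15.

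The difference between the ages was tested as the 17-month change minus the 3-month change. None of the 10 was called (0.254% of all genes), while 2 of the 10 passed an unadjusted p of 0.05 (21.8% of all genes), both higher (18.4%). The median over all genes was 0.16. Irf3 had a difference of 0.43 (SE 0.154, 95% interval 0.11 to 0.75, limma adjusted p = 0.119), and Mavs one of 0.39 (SE 0.164, limma adjusted p = 0.172). Irf3 was called in the RPKM tables (0.40, limma adjusted p = 0.0263, 5.23% of all genes called), with TPM rescaled to equal totals (0.45, adjusted p = 0.0451, 5.9%) and without HET-7796 (0.43, adjusted p = 0.0312, 5.83%). Centring each library on its median gene left Irf3 at 0.25 (adjusted p = 0.233) and Mavs at 0.21 (adjusted p = 0.224), neither called. Rnaseh2b was called after that centring (-0.43, adjusted p = 0.0447, 3.7%), where the uncentred difference was -0.25. For HOM against HET, a test added after the data were seen, Irf3 had a difference of 0.43 (SE 0.154, limma adjusted p = 0.185, 2.03% of all genes called).

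**Figure D4:**
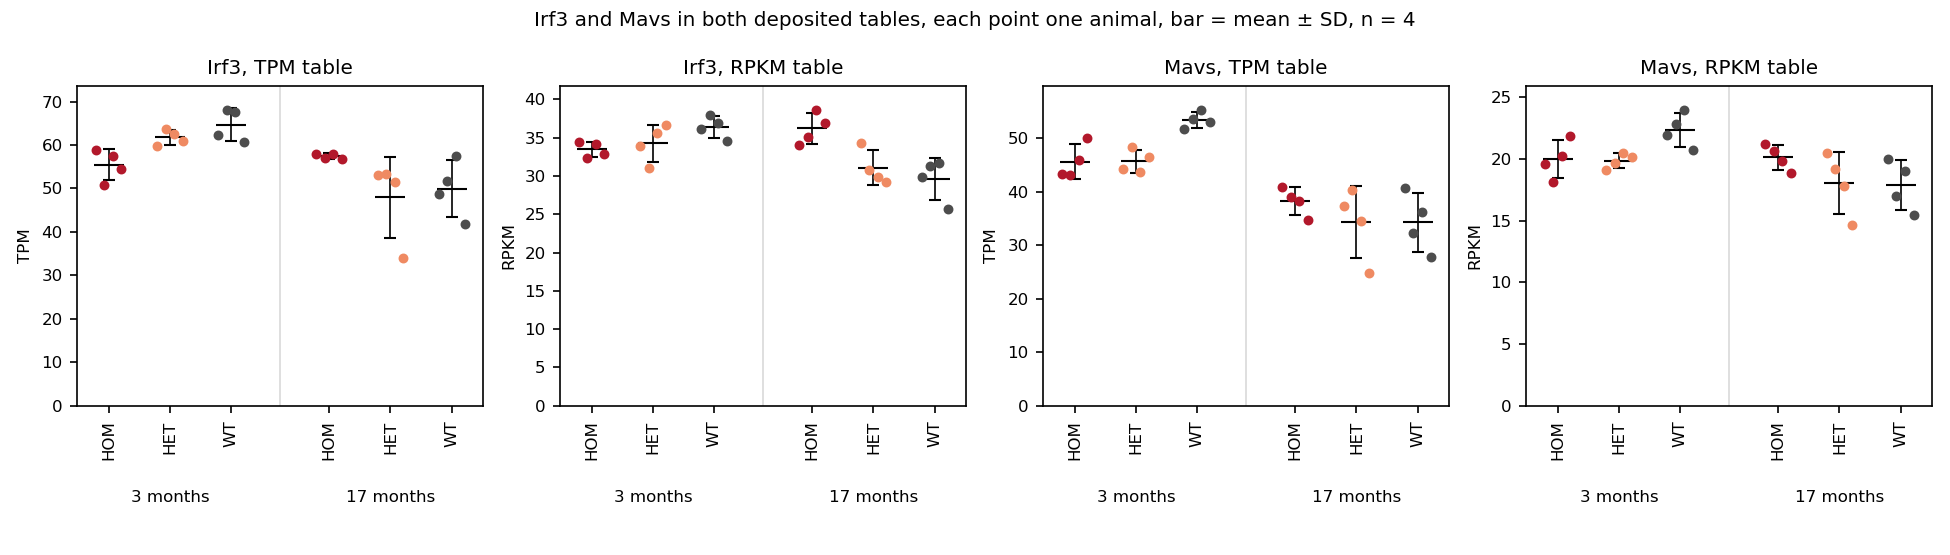
Irf3 and Mavs in the TPM and RPKM tables, by genotype and age, each axis from 0; points are animals, bars the mean ± SD of 4. At 3 months Irf3 is lower in HOM than in WT animals, while at 17 months the HOM animals in TPM sit between 56.8 and 58.0, with HET-7796 at 34.1.

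Ratios of 2 genes within a library do not depend on how the library was scaled. For 4 ratios, chosen with the values known, 24 comparisons of groups were made on the mean log2 ratio with exact permutation, two-sided. At 17 months Tmem173 stood at 7.77, 6.91, 6.84 and 6.78 times Mavs in HOM animals, against 8.14, 9.22, 9.17 and 9.12 times in WT animals. The groups did not overlap (log2 difference -0.33, exact permutation p = 0.0286, adjusted p = 0.229 over the 24). In RPKM the ratio was 7.169 to 8.11 in HOM animals and 8.68 to 9.74 in WT animals, with the same log2 difference of -0.33. Rnaseh2b stood at 0.773 to 0.835 times Rnaseh2a in HOM animals and 0.919 to 1.06 times in WT animals (-0.29, exact permutation p = 0.0286, adjusted p = 0.229). In RPKM it was 0.875 to 1.02 in HOM animals and 1.06 to 1.23 in WT animals (-0.27). With 4 animals a group no p below 0.0286 can be reached, so a single ratio could not pass after adjustment. For Tmem173 over Mb21d1 the ratio was 22.3 to 28.44 in HOM and 28.45 to 35.8 in WT animals (-0.33, the same p). In RPKM it was 21.8 to 24.5 in HOM and 24.8 to 29.4 in WT animals, a smaller difference (-0.23). For Rnaseh2c over Rnaseh2a the groups overlapped. HET and WT animals at 17 months overlapped in all 4 ratios in TPM. Their log2 differences were -0.25 for Rnaseh2b over Rnaseh2a, -0.33 for Tmem173 over Mb21d1 and -0.14 for Tmem173 over Mavs. Between HOM and HET animals these were -0.04, 0.006 and -0.20. HET-7796 was the lowest HET animal in each of these ratios. How many other gene pairs separate the groups in this way was not counted, so no share stands beside these separations. At 3 months the ranges of all 4 ratios overlapped between genotypes.

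The rest of the pathway was read from 7 lists with 170 distinct genes. In the TPM fits none of the 157 tested at 17 months, or of the 155 at 3 months, was called for HOM against WT on the TPM as deposited. After centring, 1 was called higher and 3 lower of 157 at 17 months, where 609 of 11792 genes were called (5.16%, 204 higher and 405 lower). With TPM rescaled to equal totals 2 of 158 were called, both higher, against 261 of 12028 genes (2.17%, 213 higher and 48 lower). At 3 months 11 of 34 interferon-stimulated genes tested had a log2 change above 0, against 24.8% of all genes. Their median was -0.08, against -0.10 for all genes. At 17 months 30 of 35 were above 0, with a median of 0.24 against 0.05 for all genes, and without HOM-7899 the median was 0.14. Named members were Ifitm3, at 502 ± 289 TPM in HOM and 253 ± 22.9 TPM in WT animals (log2 change 0.84, limma adjusted p = 0.133), and Ifi27l2a, at 550 ± 340 TPM in HOM and 292 ± 62.8 TPM in WT animals (log2 change 0.71). Both were highest in HOM-7899, and without it the log2 changes were 0.49 for Ifitm3 and 0.34 for Ifi27l2a.

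Of 24 signalling genes, 18 had a log2 change above 0 at 17 months (median 0.17), and 4 of 24 at 3 months (median -0.10). Among all genes 60% were above 0 at 17 months (median 0.05), and 24.8% at 3 months (median -0.10). Ikbke, a kinase that acts like TBK1, had 2.26, 2.46, 18.6 and 4.55 TPM in HOM animals, against 1.40 to 1.67 TPM in WT animals. The log2 change of 1.24 had a limma adjusted p of 0.159, and the animal at 18.6 TPM was HOM-7899, without which it was 0.67. Among the RNA sensing genes 14 of 20 were above 0 at 17 months (median 0.19) and 3 of 20 at 3 months (median -0.14). The 2'-5' oligoadenylate synthetases Oas2 (12.3 ± 5.57 TPM in HOM, 5.92 ± 0.832 in WT animals) and Oas3 (6.11 ± 4.23 TPM in HOM, 2.62 ± 0.430 in WT animals) had the largest differences of this list. Oas3 was at 12.25 TPM in HOM-7899 against 2.73 to 5.34 TPM in the other HOM animals, and its log2 change of 0.82 was 0.46 without that animal.

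Of the cytokines, Il1b, the inflammasome product, had 178, 196, 235 and 152 TPM in HOM animals, against 82.7 to 127 TPM in WT animals at 17 months. Every HOM animal lay above every WT animal, as for 9.5% of all genes. The log2 change of Il1b was 0.90 (SE 0.246, limma adjusted p = 0.0911). Mndal, a DNA-binding PYHIN protein of the Aim2 family, averaged 17.5 ± 3.89 TPM in HOM and 10.05 ± 1.67 TPM in WT animals (log2 change 0.73, limma adjusted p = 0.0712). In the list of other DNA sensing and inflammasome genes, 19 of 25 were above 0 with a median of 0.05, that of all genes. Nucleases other than the 10 had 9 of 15 above 0 (median 0.02), the STING traffic and turnover genes 23 of 34 (median 0.08) and the cytokines 7 of 10 (median 0.29). At 3 months these 4 lists had 9 of 25, 5 of 15, 4 of 33 and 7 of 10 above 0, with medians of -0.05, -0.07, -0.09 and 0.47. Among all genes 24.8% were above 0 at that age, with a median of -0.10. After centring, the 3-month medians were 0.033 for the interferon-stimulated and 0.010 for the signalling genes, against 0.014 for all genes. The signalling median thus lay below that of all genes. In the RPKM tables, by contrast, 15 of the 156 list genes tested at 17 months were called higher and 3 lower, Oas2, Il1b, Mndal and Rhbdf2 among the named ones. Of all 11173 genes tested there, 932 were called (8.34%), 715 higher and 217 lower.

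**Figure D5:**
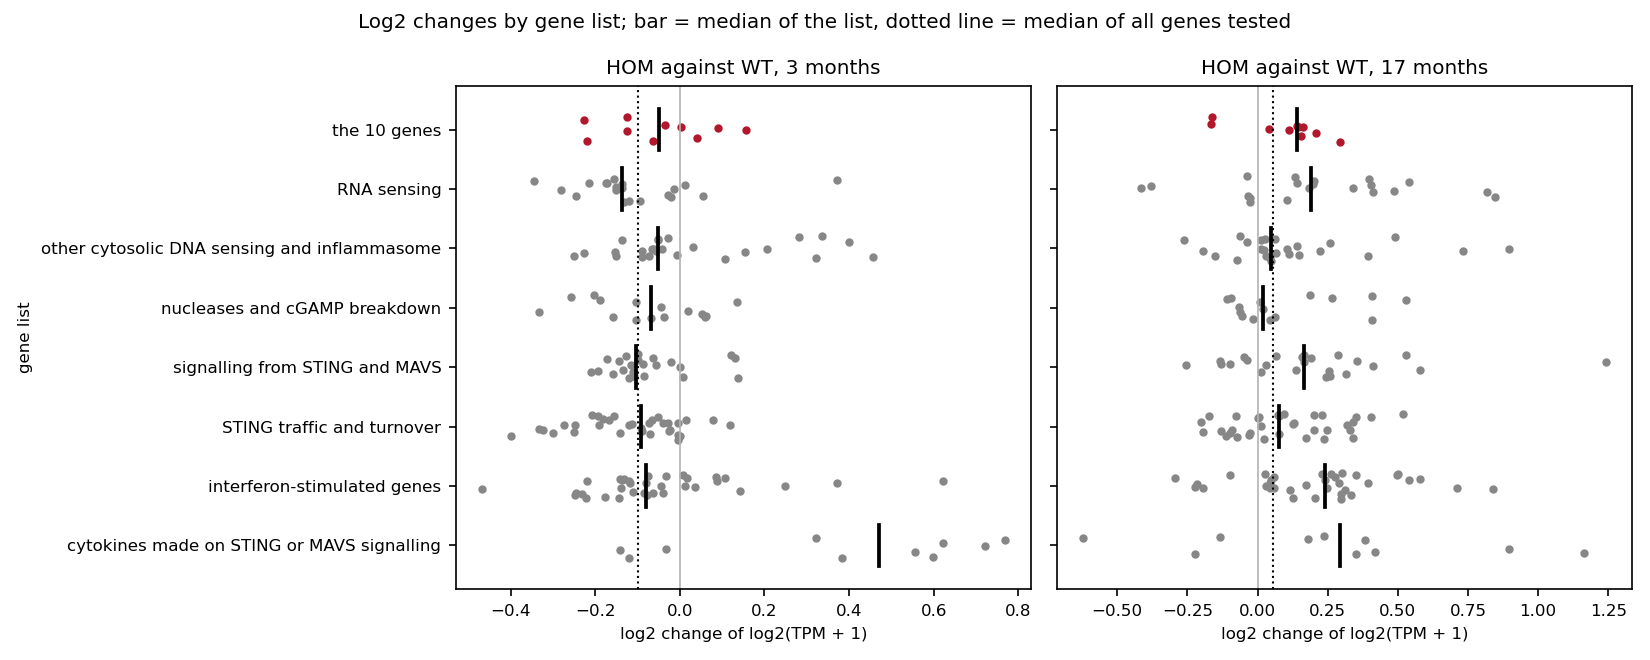
Log2 change of HOM against WT animals at 3 months (left) and 17 months (right) for the 10 genes and for 7 lists, 1 point a gene; the bar is the list's median and the dotted line the median of all genes tested. At 17 months the interferon-stimulated genes have a median of 0.24 against 0.05 for all genes, and at 3 months one of -0.08 against -0.10.

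The summed markers of other cells differed in level between genotypes. Ranges are given for HOM and WT animals, and for HET animals only in neutrophil markers. In HET animals these summed to 1913 to 5289 TPM at 3 months and 881 to 11405 TPM at 17 months. The highest sums of all libraries were those of HET-7796 (11405 TPM) and HET-7791 (11066 TPM). Monocyte markers summed to 190 to 458 TPM in HOM and 162 to 304 TPM in WT animals at 3 months. At 17 months they summed to 502 to 1609 TPM in HOM and 227 to 378 TPM in WT animals. The monocyte list shared the gene Ly6c1 with the endothelial and mural list, and its part in either sum was not tested. Neutrophil markers summed to 2113 to 4943 TPM in HOM and 1153 to 2765 TPM in WT animals at 3 months, and to 2520 to 6254 TPM in HOM and 721 to 2770 TPM in WT animals at 17 months. Endothelial and mural markers were at 87.0 to 135 TPM in HOM and 157 to 471 TPM in WT animals at 3 months, and at 415 to 543 TPM in HOM and 285 to 368 TPM in WT animals at 17 months. Oligodendrocyte markers were at 370 to 664 TPM in HOM and 381 to 914 TPM in WT animals at 3 months, and at 816 to 2035 TPM in HOM and 2368 to 6616 TPM in WT animals at 17 months. Microglial markers summed to 33000 to 34461 TPM in HOM and 32119 to 36072 TPM in WT animals at 3 months, and to 18658 to 24773 TPM in HOM and 22222 to 26193 TPM in WT animals at 17 months. Choroid plexus and ependymal markers were at 238 to 558 TPM in HOM and 615 to 1028 TPM in WT animals at 3 months. At 17 months they were at 1536 to 4379 TPM in HOM and 315 to 1453 TPM in WT animals. These markers, and likewise the endothelial and mural markers, did not overlap at either age, and the order turned round in both. B and plasma cell markers were at 42.4 to 45.6 TPM in HOM and 35.03 to 46.99 TPM in WT animals at 3 months. At 17 months they were at 40.7 to 69.2 TPM in HOM and 28.9 to 39.8 TPM in WT animals. Of these 8 markers, 2 to 3 in HOM and 1 to 2 in WT libraries were at 1 TPM or more at 3 months. At 17 months 4 to 7 were in HOM and 1 to 3 in WT libraries. The 3-month sums thus rested on few genes. As few as 3 of the 11 T and NK markers were at 1 TPM or more in a library. The sums for astrocytes, neurons, erythrocytes, T and NK cells and border-associated macrophages overlapped between HOM and WT animals at both ages. In bulk RNA, fewer cells of a type and less RNA per cell cannot be told apart, and the part of these cells in the values of the 10 genes was not tested.

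For each of the 10 genes the gene whose values were nearest over the 24 libraries was found, as the smallest mean absolute difference of values standardised within each age. Mavs lay nearest to Wbp1l at 0.228 SD, against a median of 0.839 over 11435 genes. Aim2 lay nearest to A630001G21Rik at 0.275 SD, and Tmem173 to Prpf19 at 0.286 SD, followed by Ywhag and Eif4enif1. Irf3 was nearest to Prkd2, Samhd1 to Itga4, Trex1 to Sugp1, Mb21d1 to Luc7l3, Rnaseh2a to B3gntl1, Rnaseh2b to Gm527 and Rnaseh2c to Tmem258. These distances were not tested.

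By the GENCODE annotation of GRCm38, Irf3 spans chr7:44997648-45002848 (plus strand) and Mavs chr2:131234063-131248025 (plus strand). Samhd1 spans chr2:157097533-157135265 (minus strand), Mb21d1 chr9:78430526-78443237 (minus strand) and Aim2 chr1:173350879-173466040 (plus strand). Trex1 spans chr9:109057933-109059734 (minus strand), Rnaseh2a chr8:84956610-84969767 (minus strand), Rnaseh2b chr14:62292589-62372992 (plus strand) and Rnaseh2c chr19:5601873-5607019 (plus strand). Tmem173 lies on chromosome 18. Trex1 overlaps Atrip on the same strand, and Rnaseh2a overlaps Gm49661, so the counting could split their reads. On the opposite strand Irf3 meets Bcl2l12, Aim2 Cadm3, Rnaseh2b Dleu7, Rnaseh2c Kat5, Rnaseh2a Prdx2 and Mb21d1 Gm8093. The libraries were stranded, but the use of strand in the counting is not given in the sources used here.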

How the data were processed

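Messenger RNA of CD11b-selected microglia was measured by stranded, single-end sequencing in 24 mouse libraries, per the labels' protocols. The authors deposited TPM tables for each age, and RPKM tables as well, which were used as a check. TPM and RPKM as deposited are relative to library total and gene length, and neither is a read count, which ruled a count model out here. Per the submitters' processing notes the tools included Salmon 0.8.2, Partek 7.17.0918 and TopHat2 2.1.1, with mm10, and no tool is tied to a table. The listed TPM sum to 78.9% to 90.7% of the full total. Table columns carry numbers and genotypes; the numbers were taken as animals and the columns of a group as unpaired replicates, and if they are not separate animals the p-values measure technical spread. The 17-month RPKM header names 4 columns hemi, which was read as HET.

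limma 3.58.1 under R 4.3.3 was applied to log2(TPM + 1): a mean per genotype over the 12 animals of an age, a moderated test with trend, two-sided, Benjamini-Hochberg adjustment over the genes that averaged 1 TPM or more, and a call at an adjusted p under 0.05. Fold changes on the log2(TPM + 1) scale understate the change of low genes. The fits were tested on simulated data. The mean over both ages and the difference between ages used all 24 libraries. Alternatives were a pseudocount of 0.1, no filter, a mean of at least 5 TPM, RPKM, median centring, a sex term (sex read from 4 Y-linked genes, limit 5 TPM), each library left out, and, after seeing the data, rescaled TPM and leaving out HET-7796 and HOM-7893 together. The genes, lists and tests were chosen with earlier results of these data known. Named genes were the 10, the targeted gene, list genes called in the TPM fits, and the 2 genes of each list with the largest absolute change at each age. Of those, the text gives the ones it uses. The 7 promoter patterns were chosen after the data were seen. 3110043O21Rik was tested by an exact permutation test (p = 0.0286 over 70 assignments, the smallest possible).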

Additional observations from a re-analysis of the deposited data

Results flagged for a closer look

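The 10 genes in each of the 6 groups gave 60 sets of 4 animals. In 4 sets a single animal lay farther from the rest than Dixon's 95% limit, where chance gives about 1 set in 20. The sets come from the same 24 libraries and are not independent. Mb21d1 was at 10.4 TPM in WT-8325 at 3 months, against 14.6 to 15.3 TPM in the other WT animals. Samhd1 was at 96.4 TPM in HOM-7899 at 17 months, against 56.2 to 57.4 TPM in the other HOM animals, the animal whose interferon-induced genes, some high and some low, and blood cell markers are given above. Irf3 was at 34.1 TPM in HET-7796 at 17 months, against 51.5 to 53.2 TPM. Rnaseh2a was at 16.5 TPM in HET-7794 at 17 months, against 13.9 to 14.3 TPM.

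Irf3 also turned direction between the ages in TPM: every HOM animal was below every HET animal at 3 months (log2 change -0.16) and above every HET animal at 17 months (0.28). In RPKM the HOM and HET animals overlapped at both ages, with log2 changes of -0.03 and 0.21. The difference, tested after it was seen, was 0.43 (limma adjusted p = 0.185). It was 0.25 in RPKM and 0.28 without HET-7796, with adjusted p from 0.243 to 0.272. By Y-linked transcripts all 4 HET animals were male at 3 months and all 4 were female at 17 months. Sex and age therefore cannot be told apart in the HET animals.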

How the results depend on the processing

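No paired analysis was possible because the table columns carry animal numbers and not the replicate numbers of the labels. None of the 10 genes was called in the TPM fits, with a pseudocount of 0.1, no filter, a mean of at least 5 TPM, a sex term, or HET-7796 and HOM-7893 both left out. Calls came in other settings. With RPKM 1 of 10 was called for HOM against WT at 17 months and 1 for the age difference; centring gave 1 there and rescaled TPM 1. Leaving out 1 library gave 0 to 1 for the age difference and 0 in the other comparisons.

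The counts over all genes moved widely, and the cause was not tested. For HOM against WT at 3 months (7 called) they were 23 at a 5 TPM filter, 26 centred, 2 with a sex term and 22 rescaled, and 2 to 118 with 1 library left out. For HET against WT at 3 months (5) they were 10 unfiltered, 89 at a 5 TPM filter, 1 in RPKM and 3 with a sex term, and 3 to 467. For HOM against HET at 3 months (3) they were 1 at a 5 TPM filter, 1 in RPKM and 5 centred, and 3 to 66. For HOM against WT at 17 months (84) they were 19 with the smaller pseudocount, 11 unfiltered, 932 in RPKM, 609 centred, 5 with a sex term, 261 rescaled and 2 with both animals left out, and 1 to 368. For HET against WT at 17 months (28) they were 0 unfiltered, 17 in RPKM, 1 centred, 220 with a sex term and 1 with both left out, and 0 to 239. For HOM against HET at 17 months (219) they were 89 at a 5 TPM filter, 45 with a sex term and 95 with both left out, and 104 to 246. For the mean of both ages (20) they were 12 unfiltered, 51 in RPKM and 9 with a sex term, and 6 to 46. For the age difference (29) they were 556 in RPKM, 423 centred, 58 with a sex term, 686 rescaled and 123 with both left out, and 1 to 667.

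Of the 80 log2 changes of the 10 genes over 8 comparisons, 41 changed sign in at least 1 alternative, the largest of them 0.21 in size. The changes printed were picked knowing this. Tmem173 in HET against WT at 17 months was -0.26 to 0.030 with 1 library left out, 0.030 being without HET-7796, and 0.030 with HOM-7893 left out as well. Adarb1 in HOM against WT at 3 months was -0.39 to 0.060, 0.060 being without HOM-8286, and Ifit2 there was 0.024 in RPKM.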
